A study of Homo sapiens with 2 samples.

Results

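The genes described here are 33 genes of cholesterol and fatty acid synthesis, taken by symbol from a list of pathway genes. No measured value enters that rule, but the list was drawn up with earlier results of these data known. All 33 had a row in the count tables, out of 58302 gene identifiers, and all 33 were measured, meaning that they reached 1 CPM (counts scaled to library size) in at least 1 library. RNA sequencing had been run on HK-2 cells, immortalised epithelial cells that derive from a human proximal tubule, grown with 10% fetal bovine serum. One library, labelled Ad-Bmal1, came from cells infected for 24 h with an adenovirus carrying the coding sequence of Bmal1, the clock transcription factor that pairs with CLOCK. The other, labelled Ad-GFP, came from cells infected for 24 h with an adenovirus carrying green fluorescent protein, and no uninfected cells are among the samples. The promoter that drives either insert is not given in the labels. The spelled-out name of the line carries a different number in the labels of the 2 libraries. Both were taken as HK-2, and a difference of line could not be told apart from that of the inserts.

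Cholesterol is built from acetyl-CoA through mevalonate and squalene, and fatty acids are built from acetyl-CoA through malonyl-CoA. Both routes are controlled by the SREBP transcription factors, which are held in the endoplasmic reticulum by INSIG proteins when sterols are plentiful and are carried to the Golgi by SCAP when sterols run low. In the Golgi they are cut, and the freed part enters the nucleus and binds sterol regulatory elements, often beside NF-Y. SREBP-2, from SREBF2, acts mainly on cholesterol genes, and SREBP-1, from SREBF1, mainly on fatty acid genes. Proximal tubule cells in the kidney depend largely on fatty acid oxidation for energy.

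With 1 library per group there was no replicate, so each difference below is between these 2 libraries and carries no p-value. A ratio is the scaled count in the library labelled Ad-Bmal1 over that in the library labelled Ad-GFP, and its 95% interval covers counting error only. A gene is called higher or lower where that interval excluded 1, and past 1.5-fold where the ratio also reached that size. The library labelled Ad-Bmal1 held 20051735 counts and the library labelled Ad-GFP held 20032652. BMAL1 (ENSG00000133794), the human gene of the insert's name, had 133 counts in the library labelled Ad-Bmal1 and 204 in the library labelled Ad-GFP, a ratio of 0.667 (0.532 to 0.834). The targeted gene thus went against the label, and all directions below are those of the labels. An insert that is not counted under this human identifier and an exchange of the labels cannot be told apart from the gene counts. Whether the insert was expressed at all cannot be seen from them either. Were the labels exchanged, every ratio below would be inverted, so that SCD would stand at 0.534 and TM7SF2 at 1.70. Of 20 epithelial and proximal tubule markers 12 were measured, including KRT8, PAX8 and GGT1, while the endocytic receptor LRP2 was at 0 in both libraries and AQP1 and SLC34A1 had 5 counts or fewer in each. Of 10 hepatocyte markers 7 had higher counts in the library labelled Ad-Bmal1, at trace level, with 165 counts of ALB against 9 and 15 of APOA1 against 0 in the library labelled Ad-GFP. The summed hepatocyte markers came to 279 CPM in the library labelled Ad-Bmal1 and 309 in the library labelled Ad-GFP, most of it SERPINA1. The part of these transcripts in the differences below was not tested. The 5 adipocyte markers were all under 1 CPM, with ADIPOQ and LEP at 0 in both libraries.

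Promoter sequences are shown for SCD, the member with the highest ratio, for TM7SF2, the lowest, for INSIG1, the most abundant member that was lower, for HMGCS1, the highest of the sterol route, and for SREBF2, where the sterol regulatory element core was found. They are RefSeq windows on GRCh38.p14 from 250 bases before to 50 after the annotated start, written 5′ to 3′ on the gene's strand, and capitals mark the motifs found. The motifs were TCACNCCAC (the core of a sterol regulatory element), CCAAT (the NF-Y box) and CACGTG (the E-box that BMAL1 and CLOCK can bind), searched on both strands, so that ATTGG is CCAAT on the opposite strand. No 2 motif matches overlapped in these windows.
SCD (chr10:100346983-100347282, plus strand): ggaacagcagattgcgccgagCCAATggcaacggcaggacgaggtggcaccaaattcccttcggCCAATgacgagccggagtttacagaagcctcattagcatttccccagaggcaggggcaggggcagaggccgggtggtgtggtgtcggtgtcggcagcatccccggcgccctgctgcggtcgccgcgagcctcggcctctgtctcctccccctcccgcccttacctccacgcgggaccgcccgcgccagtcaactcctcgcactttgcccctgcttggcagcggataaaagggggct
TM7SF2 (chr11:65111622-65111921, plus strand): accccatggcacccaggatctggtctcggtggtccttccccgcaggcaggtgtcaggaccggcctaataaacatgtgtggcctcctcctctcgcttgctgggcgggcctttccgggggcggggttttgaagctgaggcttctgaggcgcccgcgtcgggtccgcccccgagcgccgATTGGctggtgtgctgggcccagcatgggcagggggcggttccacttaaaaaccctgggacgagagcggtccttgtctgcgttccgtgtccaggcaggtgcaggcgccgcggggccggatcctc
INSIG1 (chr7:155297628-155297927, plus strand): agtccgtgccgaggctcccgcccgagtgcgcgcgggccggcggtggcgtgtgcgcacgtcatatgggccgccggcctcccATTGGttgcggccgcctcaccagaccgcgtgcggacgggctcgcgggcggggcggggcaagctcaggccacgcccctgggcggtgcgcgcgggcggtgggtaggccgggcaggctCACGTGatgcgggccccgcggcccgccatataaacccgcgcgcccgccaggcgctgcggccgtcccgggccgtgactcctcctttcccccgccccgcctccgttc
HMGCS1 (chr5:43313363-43313662, minus strand): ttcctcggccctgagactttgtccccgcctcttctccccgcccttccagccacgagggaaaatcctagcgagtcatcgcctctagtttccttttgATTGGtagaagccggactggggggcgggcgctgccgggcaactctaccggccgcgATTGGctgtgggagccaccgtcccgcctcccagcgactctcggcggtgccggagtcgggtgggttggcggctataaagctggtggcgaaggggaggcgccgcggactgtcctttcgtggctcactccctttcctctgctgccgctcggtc
SREBF2 (chr22:41832855-41833154, plus strand): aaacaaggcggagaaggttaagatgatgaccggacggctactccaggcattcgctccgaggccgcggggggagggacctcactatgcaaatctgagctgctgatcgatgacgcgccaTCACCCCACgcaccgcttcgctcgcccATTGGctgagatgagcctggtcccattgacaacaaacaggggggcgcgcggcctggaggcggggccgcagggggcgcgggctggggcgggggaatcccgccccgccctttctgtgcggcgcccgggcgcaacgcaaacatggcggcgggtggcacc

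The INSIG1 window held CACGTG beginning 55 bases before the start and an NF-Y box beginning 170 bases before it. The SREBF2 window held the sterol regulatory element core beginning 133 bases before the start, with an NF-Y box beginning 106 bases before it. SCD and HMGCS1 each held 2 NF-Y boxes, and TM7SF2 held 1. Of the 33 members 29 had a window, 41 windows in all, since some genes have several annotated starts, and HMGCS1 has a second window without a match. The NF-Y box was present in 25 of the 41 member windows and in 34.6% of all 35116 windows. CACGTG was present in 5 member windows, those of INSIG1, LSS, SCAP and SC5D, and in 7.26% of all windows. Windows of the same gene can overlap, as those of SC5D do, and then can hold the same site. By gene, 21 of the 29 members held the NF-Y box and 4 held CACGTG. The shares over all windows are not the background of these counts, since a gene with several windows has more chances of a match. No share by gene was computed over all genes. The sterol regulatory element core was present in 1 member window and in 1.13% of all windows. These are matches of letters in short windows. Elements further from the start, or with letters other than those searched, would not be seen.

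As a group, the synthesis genes had higher counts in the library labelled Ad-Bmal1. Ratios lay above 1 for 26 of 33 members, against 50.4% of all 13231 measured genes. Intervals lay above 1 for 19 members and below 1 for 4, while 23.8% of all measured genes had intervals above 1 and 21.6% below. The median log2 ratio was 0.20 over the members and 0.00 over all measured genes. Past 1.5-fold, SCD and ACACA were higher and TM7SF2 was lower, against 4.41% of all measured genes higher and 4.9% lower. A 2-fold difference was reached by no member.

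An interval narrows as counts grow, so the abundant members were also set beside genes of like depth. Of the 17 members with a mean of 1000 counts or more, 15 had ratios above 1, 14 had intervals above 1 and 1 had an interval below 1. Among all 3657 genes of that abundance 57.2% had ratios above 1, 41.4% had intervals above 1 and 28.7% below. Past 1.5-fold, 2 of the 17 were higher and 0 lower, against 2.32% higher and 1.26% lower among the 3657. The middle 95% of those 3657 genes had ratios between 0.719 and 1.496, which shows how far most abundant genes differed between the 2 libraries. SCD and ACACA lay above that range and the other abundant members lay within it.

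**Figure D1:**
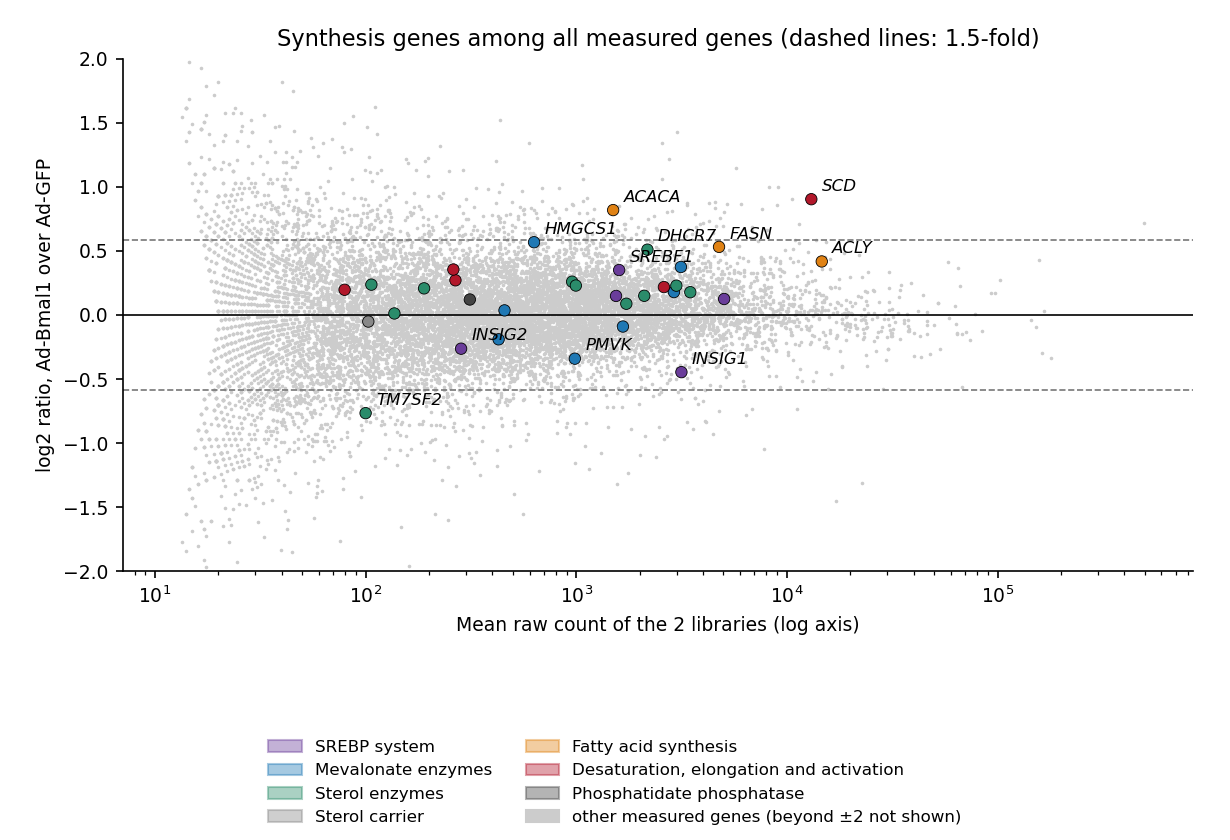
Log2 ratio of every measured gene (Ad-Bmal1 over Ad-GFP, vertical axis) against its mean raw count (logarithmic horizontal axis), with the 33 synthesis genes coloured by role and dashed lines at 1.5-fold. SCD and ACACA stand above the upper line, TM7SF2 below the lower one, and FASN, ACLY, DHCR7 and HMGCS1 above most genes of their depth.

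The fatty acid enzymes had the higher median ratio of the 2 routes, by a margin that depends on transcript length as given below. All 3 enzymes that make palmitate from citrate had higher counts in the library labelled Ad-Bmal1, and their summed level was 1214 CPM there, against 875 CPM in the library labelled Ad-GFP. ACLY, which splits citrate into acetyl-CoA in the cytosol (ENSG00000131473, chromosome 17, 41866908 to 41930542), had 16581 counts in the library labelled Ad-Bmal1 and 12701 in the library labelled Ad-GFP. Its ratio was 1.34 (1.30 to 1.37). ACACA, which makes malonyl-CoA in the committed step of the route (ENSG00000278540, chromosome 17, 37084988 to 37406818), had 1895 counts under the label Ad-Bmal1 and 1099 under Ad-GFP. The ACACA ratio of 1.76 (1.64 to 1.90) was reached or passed by 0.711% of the 3657 abundant genes. FASN, the fatty acid synthase that builds the chain (ENSG00000169710, chromosome 17, 82078333 to 82098332), had 5579 counts in the library labelled Ad-Bmal1 against 3947 in the library labelled Ad-GFP. The FASN ratio was 1.45 (1.39 to 1.51), and 3.25% of the abundant genes lay at or above it.

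These enzymes did not differ by equal amounts. Set against FASN within each library, the ACACA ratio was 1.22 times that of FASN (1.12 to 1.33) and the ACLY ratio 0.924 times (0.881 to 0.968), by the odds ratio of the counts. With the trend of the ratio on transcript length removed, the log2 ratio of FASN fell from 0.53 to 0.35 and that of ACLY from 0.42 to 0.39. ACLY then no longer lay below FASN, while ACACA stayed above both at 0.62. Per kilobase of the longest annotated transcript, ACLY stood at 193 CPM in the library labelled Ad-Bmal1 and 144 in the library labelled Ad-GFP. FASN stood at 32.9 CPM per kilobase under the label Ad-Bmal1 and 22.7 under Ad-GFP, and ACACA at 9.60 under the label Ad-Bmal1 and 5.44 under Ad-GFP. The order of levels, with ACLY above FASN and FASN above ACACA, was thus the same in both libraries. ACACB, the mitochondrial relative of ACACA, had 271 counts in the library labelled Ad-Bmal1 and 279 in the library labelled Ad-GFP, and its interval included 1 (0.994, 0.838 to 1.18).

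Among the genes that desaturate, elongate and activate fatty acids, SCD had the highest ratio of all 33 members. SCD, which puts the double bond into stearate and palmitate (ENSG00000099194, chromosome 10, 100347124 to 100364834), had 16890 counts in the library labelled Ad-Bmal1 and 9235 in the library labelled Ad-GFP. The ratio of 1.87 (1.82 to 1.92) was reached by 0.301% of the abundant genes and was 1.29 times that of FASN (1.23 to 1.36). At 159 CPM per kilobase in the library labelled Ad-Bmal1 and 85.0 in the library labelled Ad-GFP, SCD came next below ACLY among the fatty acid genes in both libraries. SCD5, the second human desaturase of this kind, was higher as well, with 994 counts under the label Ad-Bmal1 and 756 under Ad-GFP (ratio 1.35, 1.22 to 1.48).

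The other desaturases and their partners were shifted less. FADS1, the delta-5 desaturase of polyunsaturated fatty acids, had 2774 counts in the library labelled Ad-Bmal1 and 2441 in the library labelled Ad-GFP (ratio 1.16, 1.10 to 1.23). FADS2, the delta-6 desaturase, had 289 counts under the label Ad-Bmal1 and 245 under Ad-GFP, a ratio of 1.21 whose interval (1.02 to 1.44) barely cleared 1. The annotated exons of this pair overlap on opposite strands of chromosome 11, so their reads cannot be fully told apart where strand was not used in counting. The summed counts of FADS2 and the 2 genes that overlap it, FADS1 and FEN1, had a ratio of 1.07 (1.03 to 1.11). FADS2 gave only 289 of the 5160 summed counts under the label Ad-Bmal1 and 245 of 4947 under Ad-GFP, so the sum mostly follows the other genes. ACSL3, which activates long-chain fatty acids on lipid droplets and the endoplasmic reticulum, had 290 counts in the library labelled Ad-Bmal1 and 232 in the library labelled Ad-GFP (1.28, 1.07 to 1.53). ELOVL6, which lengthens palmitate to stearate, was scarce, with 84 counts in the library labelled Ad-Bmal1 and 75 in the library labelled Ad-GFP, and its interval included 1 (1.15, 0.829 to 1.59). LPIN1, a phosphatidate phosphatase of triglyceride synthesis, had 322 counts under the label Ad-Bmal1 and 303 under Ad-GFP, with an interval that also included 1 (1.09, 0.927 to 1.28).

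Over the 8 enzymes of fatty acid synthesis and modification, 7 intervals lay above 1 and none below, and the median log2 ratio was 0.39. Over the 18 enzymes from acetoacetyl-CoA to cholesterol, 9 lay above 1 and 2 below, and the median was 0.18. These counts stand beside 23.8% of all measured genes above 1 and 21.6% below. Among the 3657 abundant genes, whose intervals are narrower, the shares were 41.4% above and 28.7% below, and both routes hold abundant and scarcer genes. With the trend of the ratio on transcript length removed, the medians drew together, at 0.31 for the fatty acid enzymes and 0.24 for the sterol route. The 11 enzymes from squalene to cholesterol then had a median of 0.29 and the 5 genes of desaturation, elongation and activation one of 0.26. SCD and ACACA were past 1.5-fold in that fit too, with log2 ratios of 0.84 and 0.62. Summed over each route, the fatty acid enzymes came to 2240.0 CPM in the library labelled Ad-Bmal1 and 1479 CPM in the library labelled Ad-GFP, a ratio of 1.51 (1.49 to 1.54). The sterol route came to 1341 CPM in the library labelled Ad-Bmal1 and 1173 CPM in the library labelled Ad-GFP, a ratio of 1.14 (1.12 to 1.16). These sums are ruled by their most abundant genes, SCD and ACLY in the fatty acid route.

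**Figure D2:**
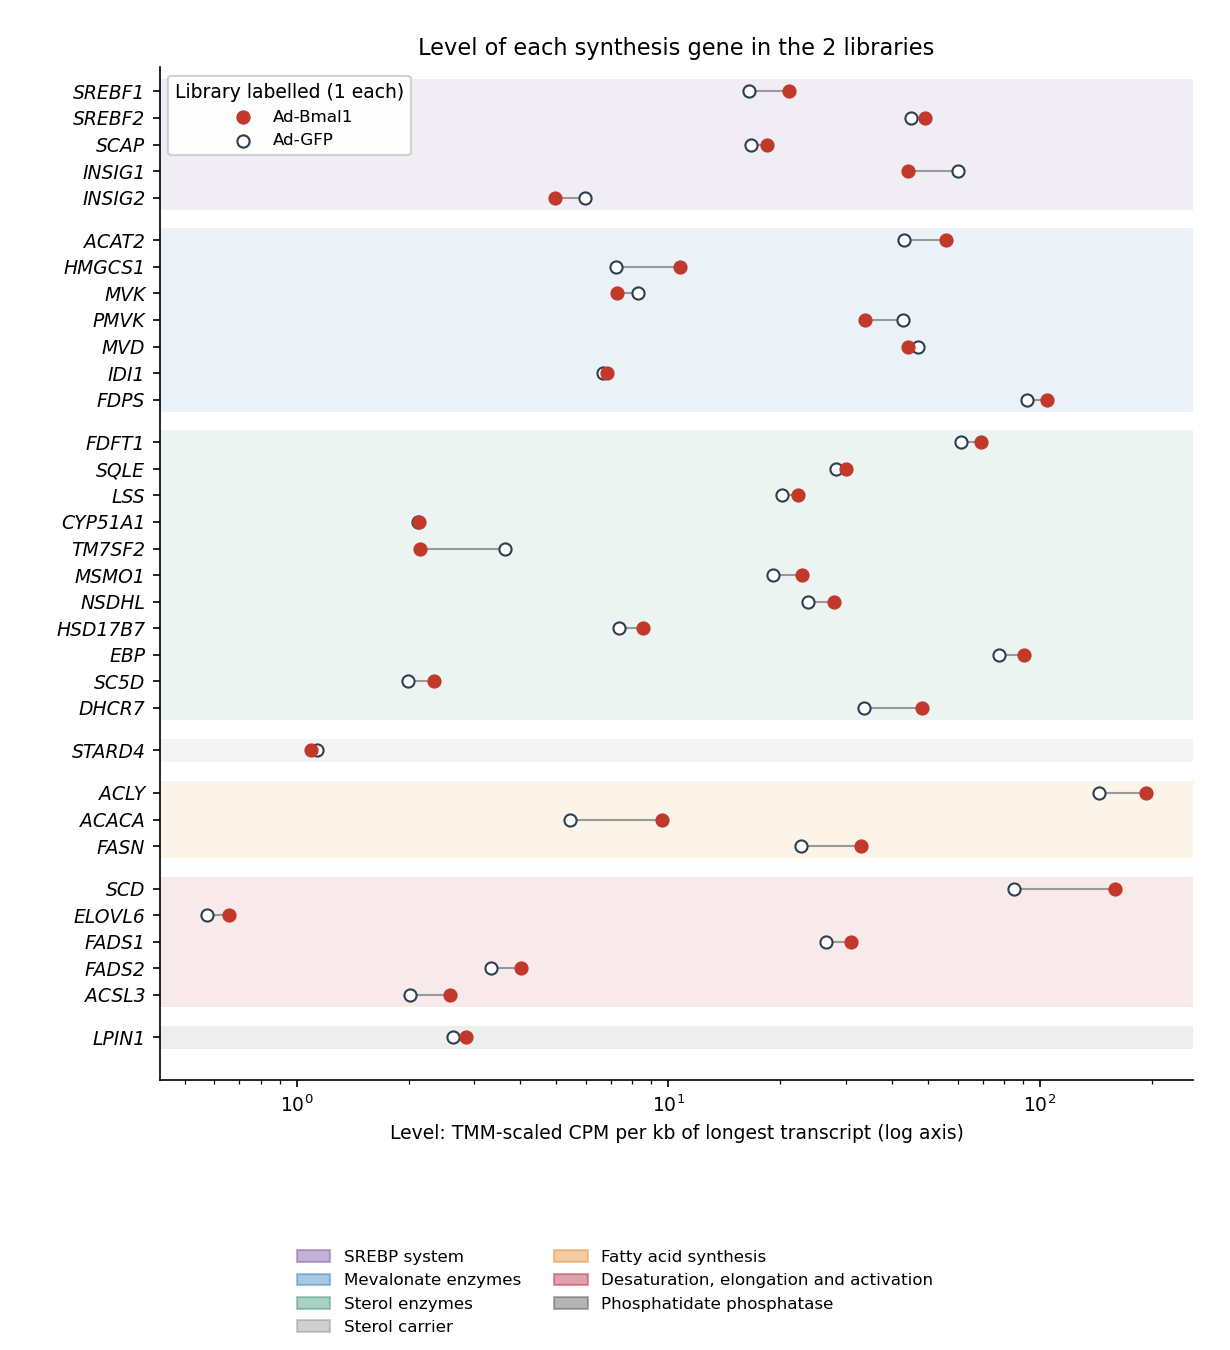
Level of each synthesis gene in CPM per kilobase of its longest annotated transcript (logarithmic axis), filled points for the library labelled Ad-Bmal1 and open points for the library labelled Ad-GFP, 1 library each, with genes grouped by role. ACLY and SCD are the highest of the fatty acid genes and FDPS and EBP of the sterol route, and the filled point lies to the right for 26 of the 33 genes.

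In the mevalonate part of the sterol route the enzymes went both ways. HMGCS1, the cytosolic HMG-CoA synthase (ENSG00000112972, chromosome 5, 43289395 to 43313512), had 746 counts in the library labelled Ad-Bmal1 and 515 in the library labelled Ad-GFP. Its ratio of 1.48 (1.32 to 1.66) was the highest of the 18 sterol-route enzymes and stood just short of 1.5-fold. ACAT2, the cytosolic thiolase that precedes it, had 3510 counts under the label Ad-Bmal1 and 2769 under Ad-GFP (1.30, 1.23 to 1.36). ACAT2 shares exon sequence with TCP1 on the opposite strand, and the summed counts of both genes had a ratio of 1.13 (1.10 to 1.16). Of these sums TCP1 gave 6521 of 10031 counts under the label Ad-Bmal1 and 6323 of 9092 under Ad-GFP. FDPS, which makes farnesyl diphosphate at the branch to sterols and isoprenoids, had 3056 counts in the library labelled Ad-Bmal1 and 2763 in the library labelled Ad-GFP (1.13, 1.07 to 1.19).

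The kinases and the decarboxylase between them had ratios below 1. PMVK, the second kinase of the route, was lower, with 858 counts in the library labelled Ad-Bmal1 and 1112 in the library labelled Ad-GFP (0.789, 0.721 to 0.864). MVK, the mevalonate kinase before it, had 395 counts under the label Ad-Bmal1 and 461 under Ad-GFP, a ratio of 0.877 (0.764 to 1.005). MVK shares exon sequence with MMAB on the opposite strand, and the summed counts of both had a ratio on the other side of 1, at 1.03 (0.932 to 1.13). MVD, which forms isopentenyl diphosphate, had 1595 counts in the library labelled Ad-Bmal1 and 1737 in the library labelled Ad-GFP, a ratio of 0.940 (0.877 to 1.01). The intervals of MVK and MVD included 1 with TMM scaling and lay below 1 when total counts or DESeq2 size factors were used. IDI1, the isomerase that follows, was nearly equal at 457 counts in the library labelled Ad-Bmal1 and 456 in the library labelled Ad-GFP (1.03, 0.899 to 1.17). The 7 mevalonate enzymes thus had 3 intervals above 1, 1 below and 3 that included it, and a median log2 ratio of 0.04.

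The enzymes from squalene to cholesterol were more even, with 10 of 11 ratios above 1 and a median log2 ratio of 0.21. FDFT1, the squalene synthase, had 3655 counts in the library labelled Ad-Bmal1 and 3305 in the library labelled Ad-GFP (1.13, 1.08 to 1.19). LSS, which closes the sterol rings, had 2189 counts under the label Ad-Bmal1 and 2018 under Ad-GFP (1.11, 1.04 to 1.18). Between them stands SQLE, the squalene epoxidase that limits the rate of the later pathway, whose interval included 1 at 1762 counts in the library labelled Ad-Bmal1 and 1696 in the library labelled Ad-GFP (1.06, 0.994 to 1.14).

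The C4 demethylation enzymes MSMO1 and NSDHL were close to each other, with ratios of 1.20 (1.09 to 1.31) and 1.17 (1.07 to 1.28). MSMO1 had 1031 counts in the library labelled Ad-Bmal1 and 881 in the library labelled Ad-GFP, and NSDHL had 1064 counts under the label Ad-Bmal1 and 928 under Ad-GFP. HSD17B7, the third enzyme of that step, had 201 counts under the label Ad-Bmal1 and 178 under Ad-GFP, and at that depth its interval included 1 (1.16, 0.940 to 1.42). EBP, the sterol isomerase, was among the most abundant, with 3191 counts in the library labelled Ad-Bmal1 and 2785 in the library labelled Ad-GFP (1.17, 1.11 to 1.23).

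At the end of the pathway DHCR7 stood out. DHCR7, the reductase that turns 7-dehydrocholesterol into cholesterol (ENSG00000172893, chromosome 11, 71428193 to 71452868), had 2534 counts in the library labelled Ad-Bmal1 and 1821 in the library labelled Ad-GFP. Its ratio was 1.42 (1.34 to 1.51), and 3.75% of the abundant genes lay at or above it. SC5D, the desaturase just before it, was scarce at 114 counts in the library labelled Ad-Bmal1 and 99 in the library labelled Ad-GFP, with an interval that included 1 (1.18, 0.892 to 1.56). CYP51A1, the lanosterol demethylase, had 136 counts under the label Ad-Bmal1 and 138 under Ad-GFP (1.01, 0.790 to 1.29), and its ratio lay on the other side of 1 with total counts or DESeq2 size factors.

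TM7SF2 was the sterol enzyme that was lower. It encodes a C14 sterol reductase, an activity that the lamin B receptor also has (ENSG00000149809, chromosome 11, 65111845 to 65116384), and it had 73 counts in the library labelled Ad-Bmal1 and 127 in the library labelled Ad-GFP. The ratio of 0.588 (0.435 to 0.791) was past 1.5-fold, but the gene was under 10 CPM in both libraries. Its annotated exons overlap those of VPS51 on the same strand, which had 1487 counts under the label Ad-Bmal1 and 1578 under Ad-GFP. The summed counts of TM7SF2 and VPS51, most of them of VPS51, had a ratio of 0.936 (0.874 to 1.003). How reads at the shared exons were assigned is not given in the labels. STARD4, which carries cholesterol between membranes, had 100 counts in the library labelled Ad-Bmal1 and 106 in the library labelled Ad-GFP, and its interval included 1 (0.965, 0.727 to 1.28).

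**Figure D3:**
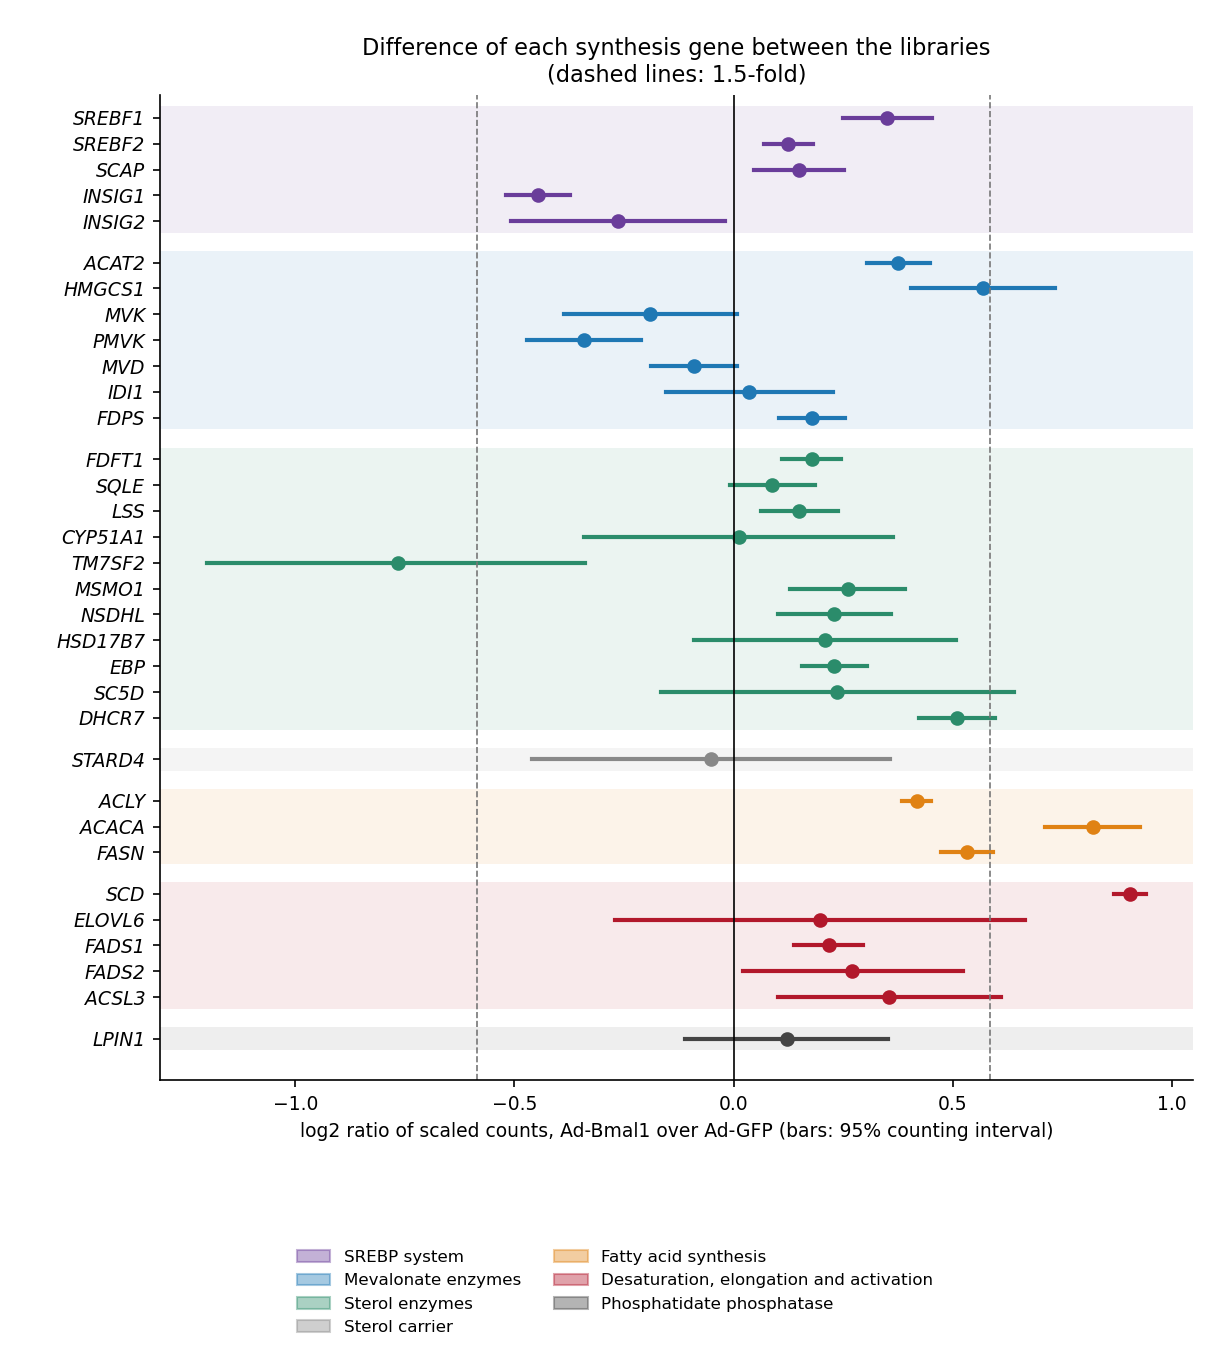
Log2 ratio of scaled counts (Ad-Bmal1 over Ad-GFP) for each synthesis gene, with its 95% counting interval as a bar, grouped by role, and dashed lines at 1.5-fold. All 8 fatty acid enzymes lie to the right of 0, the mevalonate enzymes lie on both sides, and INSIG1, INSIG2, PMVK and TM7SF2 have intervals wholly to the left.

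In the SREBP system itself the activators were higher and the retention factors lower. SREBF1 (ENSG00000072310, chromosome 17, 17810399 to 17837002) had 1774 counts in the library labelled Ad-Bmal1 and 1423 in the library labelled Ad-GFP, a ratio of 1.28 (1.19 to 1.37). SREBF2 (ENSG00000198911, chromosome 22, 41833079 to 41907308) had 5198 counts under the label Ad-Bmal1 and 4876 under Ad-GFP, a ratio of 1.09 (1.05 to 1.13). The SREBF1 ratio was 1.17 times that of SREBF2 (1.08 to 1.27). Per kilobase, SREBF2 was the more abundant in both libraries, at 48.9 CPM against 21.1 for SREBF1 in the library labelled Ad-Bmal1 and at 44.8 against 16.5 in the library labelled Ad-GFP. Gene counts do not separate the SREBP-1a and SREBP-1c transcripts of SREBF1. The annotated exons of SREBF1 also overlap those of RAI1 on the opposite strand, and the summed counts of both had a ratio of 1.33 (1.27 to 1.39). SCAP, the escort of the SREBPs, had 1607 counts in the library labelled Ad-Bmal1 and 1483 in the library labelled Ad-GFP (1.11, 1.03 to 1.19).

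INSIG1, the retention factor that is itself a well-known SREBP target (ENSG00000186480, chromosome 7, 155297776 to 155310235), had 2638 counts in the library labelled Ad-Bmal1 and 3676 in the library labelled Ad-GFP. The ratio was 0.734 (0.698 to 0.772), and 3.12% of the abundant genes lay at or below it. Most synthesis enzymes lay on the other side of 1, all 8 of the fatty acid route and 14 of the 18 of the sterol route, while PMVK and TM7SF2 had intervals below 1 like INSIG1. INSIG2, its paralog with a different control, had 255 counts under the label Ad-Bmal1 and 313 under Ad-GFP, a ratio of 0.834 (0.704 to 0.987). With the length trend removed its log2 ratio was -0.22, against -0.26, and the interval included 1. The difference was not detectably unequal between the pair, with INSIG1 at 0.881 times INSIG2 (0.738 to 1.05). INSIG1 was far above INSIG2 per kilobase in both libraries, at 44.2 CPM against 4.97 in the library labelled Ad-Bmal1 and at 60.2 against 5.96 in the library labelled Ad-GFP. The 5 genes of the system summed to 579 CPM in the library labelled Ad-Bmal1 and 581 CPM in the library labelled Ad-GFP (ratio 0.997, 0.972 to 1.02), since the opposite differences balanced.

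Beyond the synthesis genes, 73 other genes of these pathways were taken from 9 lists, and 69 were measured. Of these 17 had intervals above 1 and 20 below, none was past 1.5-fold higher and 3 were past 1.5-fold lower, and the median log2 ratio was -0.02. Over all measured genes 23.8% had intervals above 1, 21.6% below, 4.41% were past 1.5-fold higher and 4.9% lower, and the median was 0.00, so these genes together lay near the background. The same shares are the background of the counts in each list below. As the reads are from bulk RNA, a lower count cannot distinguish fewer cells that express a gene from less RNA per cell.

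The genes that move and cut SREBPs had a median log2 ratio of 0.13 over 9 genes, with 2 intervals above 1, 1 below and 6 that included it. MBTPS1, the site-1 protease, had 3842 counts in the library labelled Ad-Bmal1 and 3547 in the library labelled Ad-GFP (1.11, 1.06 to 1.16). The COPII coat genes SEC24C and SEC24D, which help load vesicles, went opposite ways with ratios of 1.22 (1.14 to 1.30) and 0.835 (0.775 to 0.899). Among 8 genes of sterol-driven degradation at the endoplasmic reticulum the median was -0.02. The segregase VCP had a ratio of 1.12 (1.09 to 1.16) and the ubiquitin-conjugating enzyme UBE2G2 one of 0.855 (0.787 to 0.928).

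Liver X receptor genes, which answer to oxysterols, had 5 measured of 7, with 3 intervals above 1 and none below. NR1H2, the receptor's beta form, had 2892 counts in the library labelled Ad-Bmal1 and 2592 in the library labelled Ad-GFP (1.14, 1.08 to 1.20), and the cholesterol exporter ABCA1 had 510 counts under the label Ad-Bmal1 and 440 under Ad-GFP (1.19, 1.04 to 1.35). Of the 6 measured genes that supply acetyl-CoA and NADPH, 4 had intervals above 1 and 1 below. ACSS2, the acetyl-CoA synthetase of the cytosol and nucleus, had 1315 counts in the library labelled Ad-Bmal1 and 962 in the library labelled Ad-GFP (1.40, 1.29 to 1.52), and IDH1, a cytosolic source of NADPH, had 1344 under the label Ad-Bmal1 and 1103 under Ad-GFP (1.25, 1.15 to 1.35). SLC25A1, which exports the citrate that ACLY uses, was instead slightly lower at 4241 counts in the library labelled Ad-Bmal1 and 4537 in the library labelled Ad-GFP (0.957, 0.917 to 0.998).

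Genes of cholesterol esterification and lysosomal transport had intervals below 1 in 5 of 8 cases and above 1 in 1, beside 21.6% and 23.8% of all measured genes, with a median log2 ratio of -0.20. LIPA, the lysosomal acid lipase that frees cholesterol from its esters, had 1435 counts in the library labelled Ad-Bmal1 and 2821 in the library labelled Ad-GFP, a ratio of 0.521 (0.488 to 0.555) and past 1.5-fold. STARD3NL, a late endosomal membrane protein gene, had a ratio of 0.705 (0.645 to 0.771), and NPC2, which binds cholesterol in the lysosome, one of 0.801 (0.768 to 0.837).

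Glycerolipid synthesis genes had intervals below 1 in 4 of 7 cases and above 1 in none, beside the same 21.6% and 23.8%, with a median log2 ratio of -0.28. AGPAT2, which makes phosphatidate, had 1255 counts in the library labelled Ad-Bmal1 and 2381 in the library labelled Ad-GFP, a ratio of 0.539 (0.503 to 0.578) and past 1.5-fold. DGAT1, which completes triglycerides, had 337 counts under the label Ad-Bmal1 and 476 under Ad-GFP (0.724, 0.628 to 0.835). The 3 measured acyl-CoA ligases beside ACSL3 had the lowest median of any list, -0.50. ACSL1 was past 1.5-fold lower with 205 counts in the library labelled Ad-Bmal1 and 347 in the library labelled Ad-GFP (0.604, 0.506 to 0.720). ACSL5 was lower at a ratio of 0.706 (0.569 to 0.874), and ACSL4, the most abundant of them, was at 1.08 (1.001 to 1.17).

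The remaining lists were mixed. Of 14 other elongation and desaturation genes 4 had intervals above 1 and 2 below, close to the 23.8% and 21.6% of all measured genes, with HACD1, a dehydratase of elongation, at 1.38 (1.18 to 1.61) and TECR, the reductase that ends each cycle, at 0.896 (0.858 to 0.935). The 9 genes of the isoprenoid branches had no interval above 1 and 2 below. These were DHDDS, a subunit of dolichol synthesis, at 0.861 (0.779 to 0.952) and FNTA, a prenyltransferase subunit, at 0.854 (0.753 to 0.969).

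**Figure D4:**
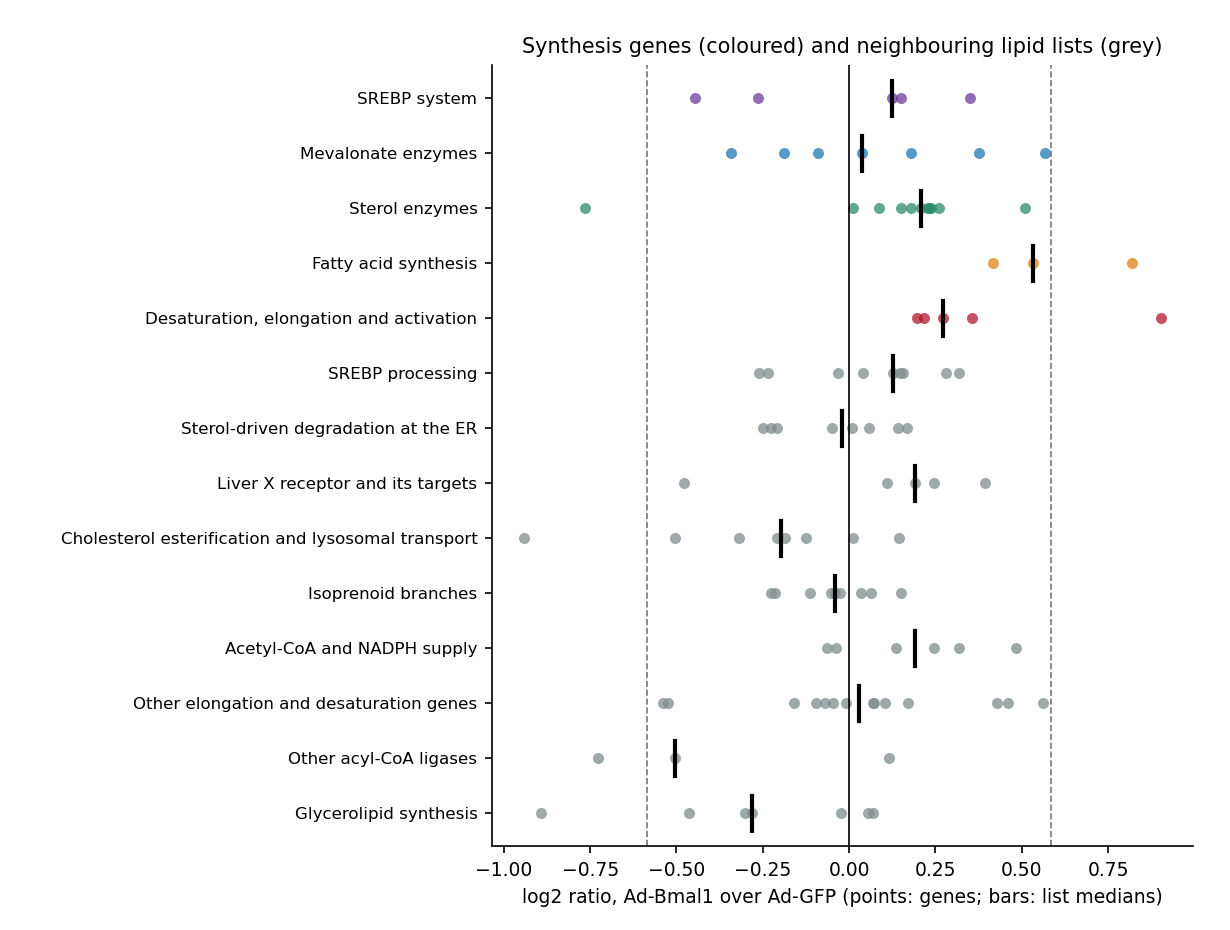
Log2 ratios (Ad-Bmal1 over Ad-GFP) of the synthesis genes by role, in colour, and of the other measured lipid genes by list, in grey; each point is a gene, black bars are list medians and dashed lines mark 1.5-fold. The coloured fatty acid groups lie wholly to the right of 0, while the grey acyl-CoA ligases have the lowest median, -0.50, and glycerolipid synthesis and lysosomal transport also have medians to the left.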

How the data were processed

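The authors deposited whole-number counts per gene, with Ensembl identifiers and no sign of normalisation. Per the labels' protocols, polyadenylated RNA was read as pairs of 150 bases. Alignment used HISAT2 and GRCh38 (hg38), per the submitters' processing notes. No counting program, strand setting or gene annotation is named there. Groups follow the sample titles.

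Scaling was by TMM (edgeR 4.0.16, R 4.3.3), with factors of 0.988 for the library labelled Ad-Bmal1 and 1.01 for the library labelled Ad-GFP. With 1 library per group no test could be fitted. Ratios carry exact 95% conditional binomial (Clopper-Pearson) intervals (scipy 1.17.1). These were tested on simulated Poisson counts, the error model that they assume, so that test does not bear on variation beyond counting. Reads without molecular identifiers are not independent, so even counting error may be understated. At this depth 1 CPM was worth 19.8 counts under the label Ad-Bmal1 and 20.3 under Ad-GFP. Gene positions and transcript lengths follow GENCODE v29 (GRCh38), which held 99.5% of the identifiers.

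Alternatives were scaling by upper quartile, by total counts or by size factors of DESeq2 1.42.0, other filters, a 2-fold size, protein-coding genes alone, removal of the length trend, and sums with overlapping genes and pseudogenes. The genes, lists and rules were chosen with earlier results of these data known. Every synthesis gene is named, and from each other list the genes past 1.5-fold, the most abundant gene and up to 2 with the interval bound farthest from 1. Other genes named, apart from BMAL1, were chosen after their values were seen.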

Additional observations from a re-analysis of the deposited data

How the results depend on the processing

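No paired analysis was possible because each group has 1 library, and for the same reason no library could be left out. Over the 33 synthesis genes the median log2 ratio stayed between 0.16 and 0.22 under every scaling and filter tried, and intervals above 1 numbered 18 to 21 and those below 1 numbered 3 to 6. With the length trend removed, the median of the 3 fatty acid synthesis genes was 0.39, against 0.53, and the medians of the 8 fatty acid and 18 sterol-route enzymes were 0.31 and 0.24, against 0.39 and 0.18. At 2-fold, 0 synthesis genes were higher and 0 lower, and over all measured genes 149 were higher and 230 lower, against 583 and 648 at 1.5-fold. With a minimum of 10 CPM, 242 genes were higher and 196 lower, and the count of synthesis genes past 1.5-fold lower was 0, since TM7SF2 falls under that minimum. The median over all measured genes, 0.003, changed sign to -0.032 with total counts, -0.017 with DESeq2 size factors and -0.002 with upper-quartile scaling, shifts under 0.1. Among single genes no called direction reversed. The call of INSIG2 was lost with the length trend removed, at a log2 ratio of -0.22 against -0.26, that of FADS2 with total counts, at 0.24 against 0.27, and that of TM7SF2 when summed with its overlapping gene. The cause of these lost calls was not tested. Under the label Ad-Bmal1 VPS51 gave 1487 of the 1560 counts in the TM7SF2 sum, and 1578 of 1705 under Ad-GFP. That sum thus mostly follows VPS51. MVK and MVD gained a call as lower under 2 scalings, and SQLE and HSD17B7 one as higher with the length trend removed. Depth limits the scarce members: the intervals of ELOVL6, SC5D, CYP51A1 and STARD4 included 1 and had bounds between 0.727 and 1.59, so differences that lie within a gene's own interval were not detectable.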

Other observations

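Genes whose exons overlap those of a synthesis gene had ratios of their own. MMAB, a cobalamin enzyme gene that overlaps MVK on the opposite strand, had 437 counts in the library labelled Ad-Bmal1 and 368 in the library labelled Ad-GFP, a ratio of 1.22 (1.05 to 1.40), while that of MVK was 0.877 and that of their summed counts 1.03. RAI1, which overlaps SREBF1, had 2064 counts under the label Ad-Bmal1 and 1531 under Ad-GFP, a ratio of 1.38 (1.29 to 1.48) beside 1.28 for SREBF1. TCP1, a chaperonin subunit gene that overlaps ACAT2, was nearer to even at 1.06 (1.02 to 1.09). FEN1, a replication nuclease gene that overlaps FADS2 on the same strand, had a ratio of 0.949 (0.894 to 1.01). How far reads passed between these pairs was not tested.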
